A study of Mus musculus with 78 samples.

Results

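Poly(A) RNA of mouse neural progenitor cells (NPCs) was compared with that of mouse embryonic stem cells (ESCs), gene by gene. Both sets of libraries are labelled as DMSO controls at 0 h, and each set holds 3 of the 78 samples of the series. The NPC samples have V6.5 as strain, were grown on PDL and laminin in RHB-A medium with bFGF, and received DMSO diluted 1 to 2000 for a time that the labels do not give. How the NPCs were derived, and whether they carry the TRIM28 tag, is not given in the sources used here. The ESCs of the comparison are V6.5 cells in which TRIM28 is fused to FKBP, a tag that a small molecule can turn into a signal for degradation, and the line was grown from a picked colony. They were kept in serum with LIF, separated from feeder cells, plated on gelatin with LIF at 2000 U/ml and treated with 0.05% DMSO for 24 h. No library of this report received the degrader. Untreated parental V6.5 ESCs, cultured with LIF on CD1 feeder fibroblasts, gave 3 more libraries, and NPC values are set beside these too. Cell type, medium, coating and perhaps genotype differ together between NPCs and either ESC group, and their parts in a difference cannot be told apart. The study calls its ESC RNA-seq replicates biological, but no source used here says that the libraries of a group came from separate cultures, so the p-values measure only the spread between these libraries, which may be technical.

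ESCs represent the pluripotent cells of the early embryo. POU5F1 (OCT4), SOX2 and NANOG bind together at their enhancers, and LIF, acting through STAT3, helps to hold the state in serum. NPCs are dividing cells of the neural lineage that can give rise to neurons and glia. They keep SOX2 but pair it with other partners such as POU3F and PAX6, they fill their cytoplasm with nestin and vimentin filaments, and Notch signalling between neighbours and FGF from the medium keep them from differentiating.

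The promoters of 4 genes that the comparison turns on are shown first, as the 250 bases before the start of transcription from RefSeq (build GRCm38.p6). Fabp7 and Zic1 were among the genes with the largest rise in NPCs, and Pou5f1 and Zfp42 among those with the largest fall. The Fabp7 stretch is chr10:57784673-57784922 on the plus strand, that of Zic1 chr9:91365769-91366018 on the minus strand, that of Pou5f1 chr17:35505782-35506031 on the plus strand and that of Zfp42 chr8:43307010-43307259 on the minus strand. Capitals mark each CG in the first 3, which hold 4, 27 and 8 of them. In Zfp42 they mark an octamer, the word ATGCAAAT that POU factors can bind, found on the opposite strand at bases 65 to 72.
Fabp7: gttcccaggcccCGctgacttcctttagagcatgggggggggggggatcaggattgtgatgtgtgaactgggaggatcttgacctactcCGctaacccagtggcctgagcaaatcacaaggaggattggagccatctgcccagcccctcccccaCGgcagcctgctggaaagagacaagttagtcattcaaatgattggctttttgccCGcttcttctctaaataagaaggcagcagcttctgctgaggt
Zic1: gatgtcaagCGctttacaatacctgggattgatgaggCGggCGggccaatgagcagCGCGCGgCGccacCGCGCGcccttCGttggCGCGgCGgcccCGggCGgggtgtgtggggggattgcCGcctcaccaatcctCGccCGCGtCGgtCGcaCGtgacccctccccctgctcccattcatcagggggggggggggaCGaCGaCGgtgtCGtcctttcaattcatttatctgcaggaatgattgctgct
Pou5f1: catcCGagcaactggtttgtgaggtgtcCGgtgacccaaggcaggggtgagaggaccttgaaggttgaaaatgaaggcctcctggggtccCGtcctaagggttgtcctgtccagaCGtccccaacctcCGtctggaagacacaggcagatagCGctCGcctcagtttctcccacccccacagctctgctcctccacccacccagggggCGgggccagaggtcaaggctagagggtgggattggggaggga
Zfp42: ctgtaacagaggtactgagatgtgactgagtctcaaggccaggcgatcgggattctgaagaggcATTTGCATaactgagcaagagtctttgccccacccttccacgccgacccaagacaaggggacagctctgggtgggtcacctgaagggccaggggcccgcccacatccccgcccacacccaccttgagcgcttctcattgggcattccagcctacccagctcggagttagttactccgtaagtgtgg

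The labels were checked against marker genes. The 10 NPC markers summed to between 6580 and 6630 TPM (a transcript level scaled to gene length and library depth) in the NPC libraries, 496 to 508 TPM in the tagged ESCs and 673 to 676 TPM in the parental ESCs, and all 10 were higher in NPCs. The 10 ESC markers summed to between 12.8 and 13.2 TPM in NPCs, against 5153 to 5581 TPM in the tagged line, and all 10 were lower. Of 6 neuronal markers, 5 were higher in NPCs, and their sum ran from 1115 to 1190 TPM there, from 151 to 153 TPM in the tagged ESCs and from 345 to 350.4 TPM in the parental ESCs. Their part in the neuronal genes below was not tested, and in bulk samples fewer cells of a type and less RNA per cell cannot be told apart. Of 4 astrocyte markers 2 were higher in NPCs, with a sum of 4.02 to 4.14 TPM against 1.80 to 2.17 TPM in the tagged ESCs, while S100b was listed at 0 in all 9 libraries and Gfap had a mean of 0.0807 TPM in NPCs. Of 5 oligodendrocyte lineage markers 2 were higher, with a sum of 18.7 to 19.9 TPM against 8.09 to 8.36 TPM, and of 4 endoderm markers 2, with 14.1 to 16.9 TPM against 5.12 to 7.47 TPM. Fibroblast markers summed to 7.69 to 8.40 TPM in NPCs, 19.6 to 20.4 TPM in the tagged ESCs and 99.1 to 102 TPM in the parental ESCs grown on feeders. Sequencing depth, read from the ratio of coverage to FPKM, ran from 0.746 to 1 in the tagged ESCs, from 0.751 to 1.4 in the parental ESCs and from 0.832 to 1.11 in NPCs, relative to the first tagged library.

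The cell types differed at 46.6% of genes tested, and more were higher in NPCs than lower. Of 17458 genes tested, 4522 (25.9%) were higher in NPCs than in the tagged ESCs and 3608 (20.7%) were lower, at an adjusted p below 0.05 in limma and a difference of more than 2-fold. In 15465 genes (88.6%) the NPC and tagged ESC libraries did not overlap. Against the parental ESCs, which share the NPC libraries with the first comparison, 5287 genes (30.3%) were higher and 3331 (19.1%) lower. A gene had the same call against both ESC groups in 4138 cases of higher and 2801 of lower expression, and 17 genes had opposite calls. The split depended on scaling. The medians of the libraries lay 0.40 higher in NPCs on the log2 scale, and with that shift removed 3302 genes were higher and 4910 lower. Against the parental ESCs the shift was 0.59 and the split without it 3546 and 5580, and the median of the single-gene differences from the tagged ESCs was 0.15 over all tested genes. The tagged and parental ESCs themselves differed at 1991 genes (11.4%).

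Most calls were moderate and a few were switches. Differences of 1 to 2 on the log2 scale were found for 2494 genes higher and 1861 genes lower in NPCs, and differences of more than 8 for 6 and 15 genes. There were 163 genes, 146 of them protein-coding, that had at least 10 TPM in every NPC library and under 0.5 TPM in all 6 ESC libraries, and 178 genes, 140 protein-coding, with the opposite pattern. Genes higher in NPCs supplied 5.4% to 5.48% of the TPM of a tagged ESC library and 21.9% to 22.0% of an NPC library, while the lower genes went from 18.1% to 18.4% down to 5.01% to 5.02%. These shares use the values that made the calls and describe their weight only.

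The pluripotency programme was at or near 0 in NPCs. Each of the 18 naive pluripotency genes was lower than in the tagged ESCs, with a median log2 difference of -5.92, and so was each of 13 pluripotency-linked genes for RNA-binding proteins and signals, with a median of -7.77. Under 1 TPM in every NPC library were 13 and 10 of these genes, which passed the filter only through ESCs and so had to differ. Pou5f1, which encodes OCT4, had 1163, 1181 and 1141 TPM in the tagged ESCs, 1448, 1458 and 1436 TPM in the parental ESCs and was listed at 0 in all 3 NPC libraries. Nanog, its partner, had 135, 142 and 132 TPM in the tagged line against 0.406, 0.394 and 0.440 TPM in NPCs. Zfp42 (REX1), a marker of the naive state whose promoter is printed above, had 132, 133 and 124 TPM and was listed at 0 in every NPC library. The ESC and NPC libraries lay far apart for each of these genes. Utf1 and Dnmt3l were also listed at 0 in NPCs, from means of 528 and 483 TPM. Dppa5a, a small KH-domain protein gene, went from 1894, 1950 and 1685 TPM to 0.415, 0 and 0 TPM (log2 difference -11.55 ± 0.20 SE, adjusted p = 1.76e-11, limma), and Tdgf1, the Nodal co-receptor, from 1063, 1072 and 1008 TPM to 0, 0.0326 and 0 TPM.

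Some members of these lists kept a low level. Klf4, a reprogramming factor, had 4.84, 5.85 and 5.95 TPM in NPCs, 43.0, 45.5 and 43.9 TPM in the tagged ESCs and 326, 329 and 331 TPM in the parental ESCs. Its fall was therefore -2.89 ± 0.064 (SE) on the log2 scale against the first group and -5.77 against the second. Klf5 and Sall4 kept means of 6.72 and 6.21 TPM in NPCs. The let-7 antagonist Lin28b fell least of the pluripotency-linked list, from 40.1 ± 0.617 to 11.9 ± 0.435 TPM (SD, n = 3), while its relative Lin28a went from 460 ± 5.91 to 7.69 ± 0.365 TPM. Sox2, which both cell types use, did not fall. It had 212, 206 and 195 TPM in the tagged ESCs, 419, 413 and 413 TPM in the parental ESCs and 430, 413 and 423 TPM in NPCs. The NPC libraries were above the tagged ESCs (log2 1.04 ± 0.031, adjusted p = 6.59e-10) and overlapped with the parental ones (log2 difference 0.02, adjusted p = 0.492).

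Formative and primed epiblast genes, which mark the step after the naive state, split. Of 15 genes 4 were higher, a share close to the 25.9% over all genes, and 7 lower. The higher ones were Otx2, Sox4, Sox11 and Zic2, which neural cells also use, and the lower ones included Fgf5, Foxd3, Grhl2 and Cldn6. Of the 15 genes 3 (Fgf5, Foxd3 and Grhl2) were under 1 TPM in every NPC library and passed the filter only through ESCs. Fgf5 was not called against the parental ESCs (log2 difference -0.44). Pou3f1 (OCT6), an epiblast and neural factor, had 85.8, 86.1 and 85.0 TPM in the tagged ESCs, 10.5, 9.09 and 10.3 TPM in the parental ESCs and 17.7, 17.7 and 19 TPM in NPCs, so NPCs lay below one ESC group and above the other. The difference from the parental ESCs, 0.83 on the log2 scale, was under the 2-fold limit.

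**Figure D1:**
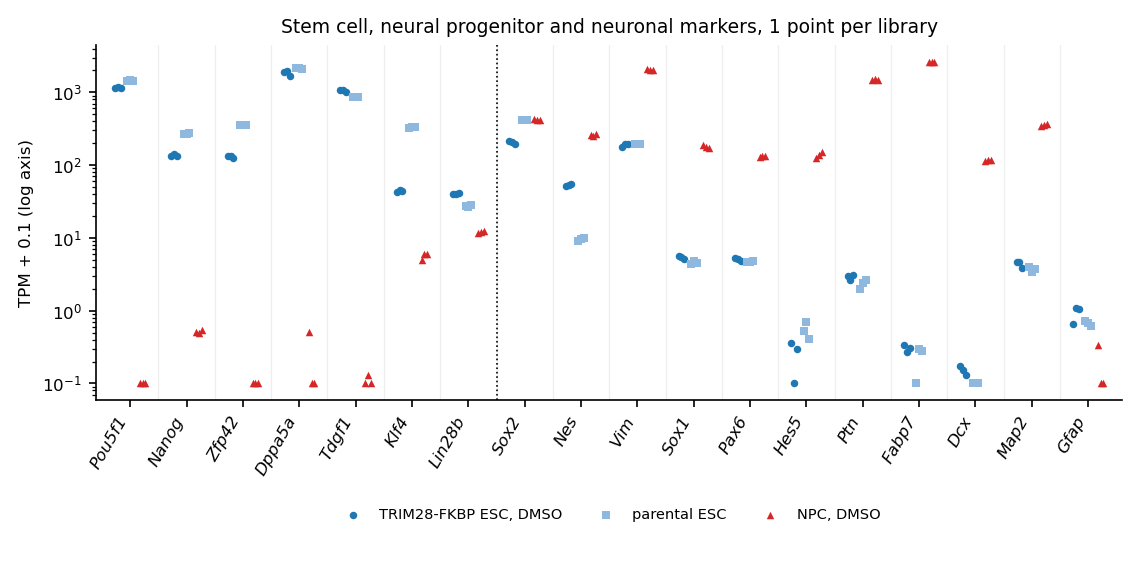
TPM plus 0.1 on a log axis for stem cell markers (left of the dotted line) and for Sox2, progenitor, neuronal and astrocyte genes (right), with 1 point per library of the tagged ESCs (circles), parental ESCs (squares) and NPCs (triangles). Pou5f1 is listed at 0 in every NPC library, Sox2 has means of 415 TPM in the parental ESCs and 422 TPM in NPCs, and Fabp7 goes from 0.204 TPM in the tagged ESCs to 2623 TPM in NPCs.

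All neural progenitor transcription factors of the list were higher in NPCs. All 30 passed the filter, but 14 of them were under 1 TPM in all 6 ESC libraries, passed only through the NPC libraries and so had to differ. All 30 were called higher in NPCs with a median log2 difference of 4.33, and 27 of them were also higher than in the parental ESCs. With the median shift between libraries removed, 28 kept the call. The SOXB1 factor Sox1 had 187, 175 and 174 TPM in NPCs against 5.56, 5.31 and 4.97 TPM in the tagged ESCs (log2 4.96 ± 0.051, adjusted p = 8.45e-13). Pax6, a master gene of eye and forebrain progenitors, had 130, 135 and 135 TPM against 5.19, 5.10 and 4.78 TPM. In both cases the parental ESCs lay next to the tagged ones. Among the POU factors Pou3f3 had 116, 118 and 116 TPM in NPCs and at most 0.181 TPM in an ESC library, and Pou3f2 and Pou3f4 had means of 45.3 and 37.3 TPM. Zic1, a dorsal neural tube factor, had 378, 381 and 378 TPM in NPCs against 0.415, 0.442 and 0.692 TPM in the tagged line. Zic4, which overlaps Zic1 on the other strand, had a mean of 254 TPM, and how reads were divided between these overlapping genes is not given in the sources used here. The SOXE and SOXD factors Sox9, Sox5 and Sox6 had means of 40.2, 17.7 and 19.8 TPM in NPCs and under 0.7 TPM in both ESC groups. Olig2, Nfia and Nfib, regulators that prepare the switch to glia, reached 24.5, 29.9 and 74.7 TPM. For Hes1, Sox2 and Olig1 the parental ESCs were within 2-fold of NPCs.

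Radial glia, the progenitors of the embryonic brain, make a typical set of products, and 20 of the 23 tested (of 24 listed) were higher in NPCs with none lower, 5 of the 23 having passed only through the NPC libraries. Fabp7, the brain fatty acid-binding protein, had 2613, 2609 and 2646 TPM in NPCs, 0.233, 0.169 and 0.210 TPM in the tagged ESCs and at most 0.195 TPM in the parental ones, which made it the largest rise of all called genes (log2 11.87 ± 0.11, adjusted p = 5.81e-13). Ptn, the growth factor pleiotrophin, had 1488, 1503 and 1462 TPM against 2.90, 2.51 and 2.98 TPM. The phosphatase Ptprz1, a receptor for pleiotrophin, went from a mean of 0.737 to 232 TPM. Vim, the intermediate filament vimentin, was already well expressed in ESCs, with 177, 195 and 193 TPM, and had 2072, 2054 and 2019 TPM in NPCs. Nes (nestin) separated the ESC groups as well, with 258, 254 and 272 TPM in NPCs, 52.1, 52.7 and 54.2 TPM in the tagged ESCs and 8.99, 9.70 and 9.79 TPM in the parental ones. Msi1, an RNA-binding protein of neural stem cells, rose from 21.1 to 376 TPM while its paralogue Msi2 had means of 63.7 and 108 TPM and was under the limit. Gja1, the gap junction protein connexin 43, had 193 TPM in the tagged ESCs and 118 TPM in NPCs, and Mt3 11.9 and 16.0 TPM. The highest called transcripts of the NPCs were Tuba1a, the alpha-tubulin of young neural cells, at 2924 ± 69.5 TPM, Fabp7, Tmsb4x, an actin-binding thymosin, at a mean of 2492 TPM, and Vim.

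Other genes with the largest rises came from several families. Pantr1, a non-coding RNA that starts beside Pou3f3, went from 0.138 to 235 TPM. Igfbp5, which binds insulin-like growth factors, had 274, 294 and 271 TPM in NPCs and under 0.8 TPM in every ESC library. The synaptic adhesion gene Lrrc4b went from a mean of 0.218 to 180 TPM and Otx1 from 0.272 to 181 TPM. Among the largest falls that were not pluripotency factors were Cldn4, a tight junction claudin, from 141 to 0.0105 TPM, Sfn, an epithelial 14-3-3 protein, from 324 to 0.755 TPM, and the non-coding RNA Platr10, from 149 to 0.0154 TPM. Tdgf1-ps1, listed at 0 in NPCs after 136 TPM, is a pseudogene close in sequence to Tdgf1, and how reads were shared between the pair is uncertain.

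**Figure D2:**
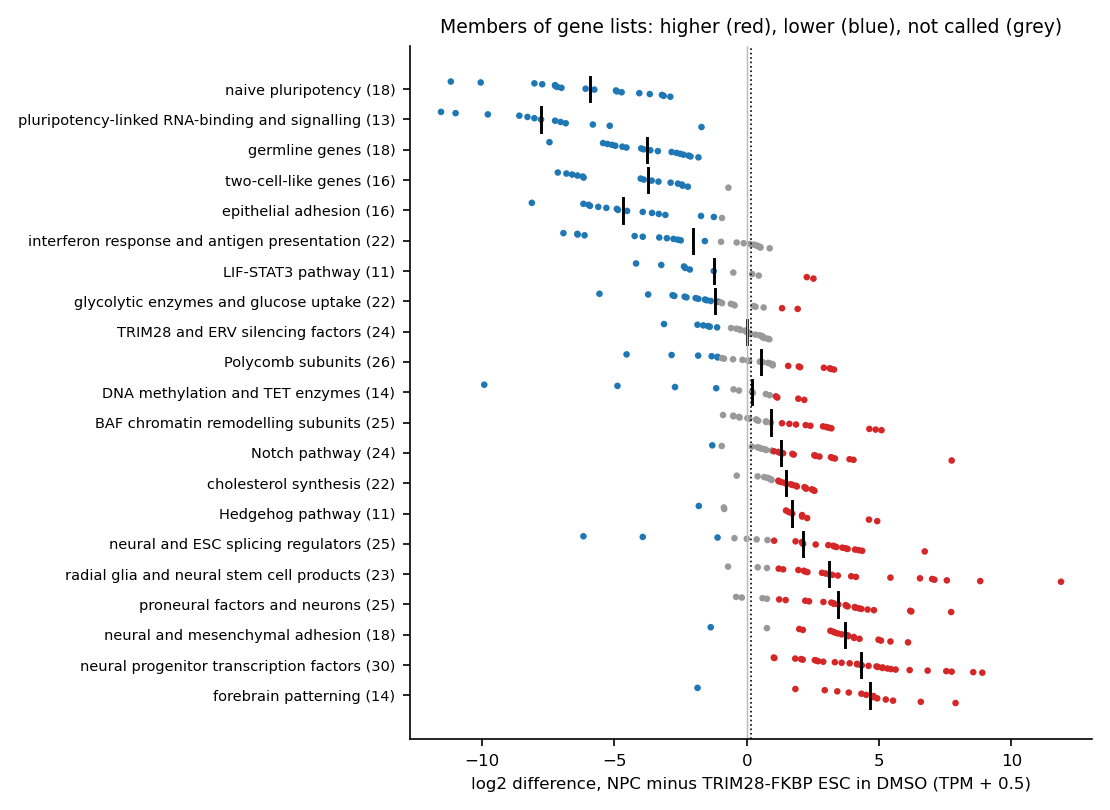
Log2 difference, NPCs minus tagged ESCs, on the log2(TPM + 0.5) scale for each tested member of 21 gene lists (number tested in brackets), red where called higher, blue where called lower and grey where not called, with the list median as a black bar. The dotted line is the median of all tested genes at 0.15. The pluripotency lists lie at the left with medians of -5.92 and -7.77, and the neural transcription factors at the right with a median of 4.33.

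Genes of more than 1 region along the neural axis were expressed. Of 17 forebrain genes 14 passed the filter, 10 of them only through the NPC libraries, and 13 were higher in NPCs. Otx2, a gene of forebrain and midbrain that is also used in the epiblast, had 533, 564 and 538 TPM in NPCs against 13.8, 13.6 and 14.1 TPM in the tagged ESCs, a 39.4-fold difference of the means. Emx2 and Lhx2, of dorsal forebrain, had means of 35.6 and 38 TPM, and Dlx1 and Dlx2, of ventral forebrain, 20.3 and 15.9 TPM. Hesx1, an early anterior gene, was the 1 lower member, at 1.36 TPM in the tagged line and listed at 0 in NPCs, where Rax and Nkx2-1 were listed at 0 as well. The NPC libraries were close to each other for each of these genes.

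Of 20 midbrain and hindbrain genes 18 were tested, 5 of them only through the NPC libraries, with 11 higher and 2 lower. En2, an engrailed gene of the midbrain and hindbrain border, had 53.0, 47.2 and 49.6 TPM in NPCs and 3.79, 4.01 and 4.03 TPM in the tagged ESCs. Its partners at this border, En1 and Pax5, had means of 22.6 and 21.9 TPM, while the border signals Fgf8 and Wnt1 had 5.73 and 0.150 TPM. The Iroquois factor Irx2 had 88.1, 92.0 and 87.7 TPM against 2.53, 2.38 and 2.96 TPM. Gbx2, a hindbrain gene that ESCs use downstream of LIF, was lower than in the tagged line, with means of 17.6 and 59.0 TPM, and within 2-fold of the 21.3 TPM of the parental ESCs.

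Hox genes, which mark position from hindbrain to spinal cord, were mostly higher in clusters A to C, where 5 of 7, 7 of 9 and 3 of 5 tested genes passed only through the NPC libraries. In cluster B, 8 of 9 tested genes were higher and none lower. Hoxb9 had 31.3, 32.7 and 31.5 TPM in NPCs and 1.23, 1.13 and 1.47 TPM in the tagged ESCs, Hoxb8 a mean of 29.6 TPM, and Hoxb6 and Hoxb3 15.5 and 14.1 TPM. Cluster A had 5 of 7 higher, at lower levels, with Hoxa2 at 4.31 TPM as its highest. Cluster C had 4 of 5 higher, led by Hoxc6 at 11.2 TPM, and in cluster D the 1 gene that passed the filter, Hoxd13, was lower. Hoxa13, Hoxd10, Hoxd11 and Hoxd12, the genes of the tail end, had at most 0.00805 TPM in NPCs on average. Forebrain genes and Hox genes as far as Hoxb9 were thus present in each NPC library, while those of the tail end were near 0. Whether the former were in the same cells cannot be read from bulk RNA.

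**Figure D3:**
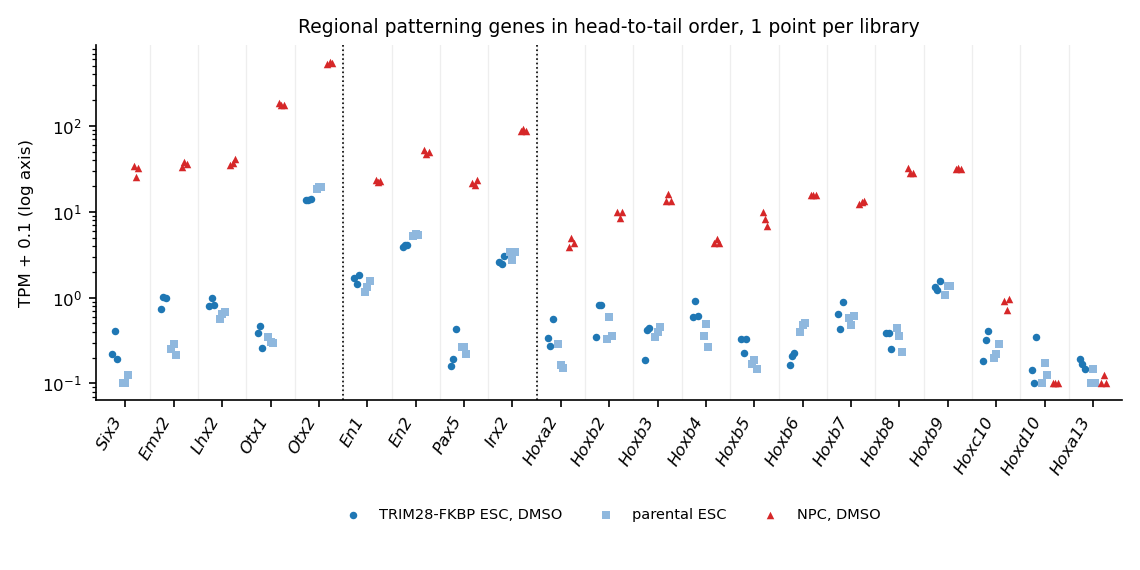
TPM plus 0.1 on a log axis for forebrain genes (left), midbrain and hindbrain genes (between the dotted lines) and Hox genes (right), 1 point per library of the tagged ESCs (circles), parental ESCs (squares) and NPCs (triangles). NPC levels run from 545 TPM on average for Otx2 to 31.8 TPM for Hoxb9, and fall to the ESC level at Hoxd10 and Hoxa13.

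Dorsoventral genes of the neural tube gave 9 higher and no lower among 13 tested (18 listed), or 8 and 2 with the median shift removed, and 7 of the 13 passed only through the NPC libraries. Dbx1, a gene of intermediate progenitors, had 40.7, 47.9 and 46.5 TPM in NPCs and was listed at 0 in all but 1 of the ESC libraries, where it had 0.0293 TPM. The dorsal genes Pax3 and Msx3 had means of 22.6 and 14.0 TPM, and Pax7 3.66 TPM. At the ventral end the levels were low, with Shh at 1.77 TPM, Foxa2 at 3.18 TPM and Nkx6-1 at 0.734 TPM. Olig2, of the ventral motor neuron domain, had 24.5 TPM.

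Neuronal genes were widely higher alongside the progenitor genes, with 21 of 25 called and none lower (median log2 difference 3.46), 7 of the 25 having passed the filter only through the NPC libraries. The proneural factor Neurog2 had 42.4, 45.1 and 42.0 TPM in NPCs against 0.141, 0.0534 and 0.120 TPM in the tagged ESCs. Dcx, a microtubule protein of migrating neurons, had 113, 116 and 119 TPM in NPCs and at most 0.0719 TPM in an ESC library. Map2, a dendritic microtubule protein, had 344, 354 and 365 TPM against 4.54, 4.60 and 3.72 TPM. Tubb3, the beta-tubulin used to stain neurons, was present in ESCs at 52.4, 51.8 and 50.5 TPM and had 553, 565 and 598 TPM in NPCs. Genes of neurotransmitter identity were lower in level, with Gad2 (GABA synthesis) at 11.7 TPM and Slc17a6 (vesicular glutamate transport) at 7.91 TPM. Neurod1, Nefl and Stmn2 did not reach the limit, and Stmn2 had 158 TPM in NPCs between the 93.2 TPM of the tagged and the 247 TPM of the parental ESCs.

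Genes of mature glia were mostly low. Of the astrocyte list 9 of 12 were tested, 5 of them higher and 1 lower, or 3 and 2 with the median shift removed. Only through the NPC libraries passed 3 of the 9, and 2 of the 6 others were higher. The higher ones included the glutamate transporter Slc1a2, at 22.1 TPM, and Sox9, but Aqp4 reached only 1.09 TPM. Apoe, the lipid carrier that astrocytes make, ran the other way, with 490, 492 and 445 TPM in the tagged ESCs and 64.8, 56.7 and 57.2 TPM in NPCs. In the oligodendrocyte list 5 of 9 tested genes were higher and 1 lower, or 5 and 3 without that shift. Sox10 had a mean of 0.0383 TPM in NPCs, and Mog and Mag were listed at 0. Myrf, which drives myelin genes but is also expressed in ESCs, fell from 74.3 to 1.17 TPM.

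Genes of other lineages were checked in the same way. Of 15 endoderm genes tested (20 listed) 8 were higher, but 4 of the 15 passed the filter only through the NPC libraries. Of the 11 others 4 were higher, against 25.9% of all genes tested. The 8 were led by the chemokine receptor Cxcr4 at 89.2 TPM, which neural cells also use, while Sox17 and Foxa2 had 6.35 and 3.18 TPM. Of 11 trophoblast genes tested 7 were lower and 1 higher than in the tagged ESCs, but 3 were lower and 3 higher than in the parental ESCs. Under 1 TPM in every NPC library were 6 of the 11, which passed the filter only through ESCs. Of 20 mesoderm genes only 7 passed the filter, 1 of them only through the NPC libraries and 3 only through ESCs. They gave 3 lower and 2 higher, Kdr and Eomes, against 1 lower and 4 higher than in the parental ESCs. Kdr, a VEGF receptor, went from 0.787 to 26.6 TPM, and Eomes, which cortical intermediate progenitors share with mesoderm, from 3.42 to 41.3 TPM. Neural crest genes gave 5 higher and 2 lower of 11, with Tfap2b at 19 TPM in NPCs and Foxd3 down from 27.7 to 0.183 TPM. Of these 11 genes 2 passed the filter only through the NPC libraries and 1 only through ESCs.

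In the Notch pathway, through which neighbouring progenitors hold each other back from differentiating, 15 of 24 tested genes were higher and 1 was lower. Only through the NPC libraries passed 3 of the 24, and 12 of the 21 others were higher. Among the ligands Dll1 had 112, 123 and 111 TPM in NPCs against 7.85, 6.95 and 7.30 TPM in the tagged ESCs, and Jag2 was the 1 lower gene, with means of 9.31 and 23.7 TPM. The receptors Notch1 and Notch2 rose from 11.2 to 38 TPM and from 15.5 to 37.1 TPM. Among the targets Hes5 had 125, 137 and 150 TPM in NPCs and 0.255, 0 and 0.202 TPM in the tagged ESCs, while Hes1 rose only from 24.7 to 50.7 TPM. The Fringe enzymes that tune the receptors, Lfng and Mfng, went from 7.89 to 55.7 TPM and from 5.65 to 55.2 TPM. Rbpj, the DNA-binding partner of Notch, had 130 TPM in the tagged ESCs and 67.0 TPM in NPCs and was within the limit.

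Of 26 FGF and EGF pathway genes 9 were higher and 6 lower, near the 25.9% and 20.7% of all genes, or 7 and 7 with the median shift removed. The counts were 14 and 5 against the parental ESCs. The filter was passed only through the NPC libraries by 2 of the 26, Erbb4 among them. It was passed only through ESCs by 4, which included Fgf4, Egfr and Erbb3. Among the 24 that reached 1 TPM in an ESC library 7 were higher. The ligands were exchanged. Fgf4, the autocrine FGF of ESCs, had 138, 131 and 133 TPM in the tagged line and 0.0545, 0 and 0 TPM in NPCs. Its neighbour on chromosome 7, Fgf15, had 10.7, 11.8 and 11.3 TPM in the tagged ESCs and 404, 408 and 400 TPM in NPCs (log2 5.10 ± 0.036, adjusted p = 1.01e-13). The receptor Fgfr1 rose from 76.0 ± 2.94 to 197 ± 3.31 TPM, and the feedback inhibitors split, with Spry1 up from 15.1 to 247 TPM and Spry4 down from 36.3 to 8.42 TPM. Among the EGF-type receptors Egfr and Erbb3 were lower, with 0.533 and 0.212 TPM in NPCs, and Erbb4 was higher at 5.31 TPM. NPCs were cultured with added bFGF, and its part in these differences was not tested.

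The LIF pathway gave 6 lower and 2 higher genes of 11, and 2 of the 11 passed the filter only through ESCs. The receptor Lifr had 23.3, 23.1 and 22.5 TPM in the tagged ESCs and 3.65, 4.45 and 4.05 TPM in NPCs, while the shared subunit Il6st had means of 22.5 and 26.0 TPM. Cntfr, the receptor subunit for the related factor CNTF, had 40.4, 42.9 and 44.9 TPM in the tagged ESCs and 251, 250 and 240 TPM in NPCs. Targets of STAT3 fell, Socs3 from 69.1 to 13.4 TPM and the kinase gene Pim1 from 217 to 11.5 TPM. Only the ESC cultures contained LIF, and its part in these differences was not tested.

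Hedgehog genes were mostly higher, while the count of BMP genes depended on scaling. In the Hedgehog pathway 8 of 11 tested genes rose and 1 fell, or 8 and 3 with the median shift removed. Over all genes tested 25.9% were higher and 20.7% lower. In the Hedgehog list 1 gene passed the filter only through the NPC libraries, and 7 of the 10 others were higher. The co-receptors Gas1 and Boc rose from 2.39 to 87.2 TPM and from 1.36 to 45.0 TPM, the transducer Smo from 31.8 to 137 TPM, and Gli3, whose product mainly acts as a repressor, from 16.4 to 81.7 TPM. The pathway targets Gli1 and Ptch1 had lower means in NPCs, 23.2 against 42.9 TPM and 31.9 against 57.9 TPM, within the 2-fold limit. In the BMP list 10 of 17 tested genes were higher and 4 lower, or 5 and 4 with the median shift removed. Of these 17 genes 1 passed the filter only through the NPC libraries and 1 only through ESCs. Id4 went from 1.33 to 36.5 TPM and Id2 from 57.9 to 210 TPM. Id1 had 114 TPM in the tagged ESCs, 20.1 TPM in the parental ESCs and 25.9 TPM in NPCs, so that its call depended on the ESC group.

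Cell adhesion changed from an epithelial to a neural set. Of 16 epithelial adhesion genes 15 were lower in NPCs and none higher, but 6 of the 16 passed the filter only through ESCs. Of 18 neural and mesenchymal adhesion genes 16 were higher and 1, Snai1, lower. Only through the NPC libraries passed 3 of the 18, and 13 of the 15 others were higher. Cdh1 (E-cadherin) had 374, 372 and 357 TPM in the tagged ESCs, 330, 332 and 331 TPM in the parental ESCs and 5.72, 5.56 and 5.44 TPM in NPCs, a 66.0-fold difference from the tagged line. Cdh2 (N-cadherin) had 7.49, 8.01 and 7.54 TPM, 1.88, 2.22 and 2.26 TPM and 352, 352 and 350 TPM. The groups did not overlap for either gene. Zeb1, a repressor of Cdh1, rose from 5.59 to 60.6 TPM, and Epcam and the splicing factor Esrp1, both epithelial, fell from 258 to 8.14 TPM and from 44.8 to 0.129 TPM. Against the parental ESCs 11 of the 16 epithelial genes were lower. Krt8 and Krt18 were among those called only against the tagged line, and Krt8 had 395, 422 and 415 TPM in the tagged ESCs but 13.4, 13.9 and 13.2 TPM in the parental ESCs and 8.33, 7.85 and 7.57 TPM in NPCs.

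Protocadherins are cadherin relatives whose combinations tell neurons apart. Families here were grouped by symbol after their values had been seen, and calls are counted over members that passed the filter. Of 14 genes of the alpha cluster 11 passed the filter and of 22 of the beta cluster 19, all only through the NPC libraries, so that these genes had to be higher there and their calls are no result about the family. In the gamma cluster 18 of the 20 tested genes reached 1 TPM in an ESC library, and 9 of the 18 were higher in NPCs. Members of the alpha and gamma clusters share their last exons, so how reads were divided among them is uncertain, while each beta gene has its own exon. Levels of single members were low, such as Pcdhb9 with 2.46, 2.18 and 2.15 TPM in NPCs. Outside the clusters 3 of 9 tested genes reached 1 TPM in an ESC library and 2 of the 3 were higher. Among all 9, Pcdh8 was at 87.4 TPM against 0.438 TPM and Pcdh19 at 29.6 TPM against 0.859 TPM. Among guidance families 14 of 21 Eph receptors and ephrins were higher and 4 lower, and 17 and 3 of 26 semaphorins and plexins, with 4 genes of each family passing only through the NPC libraries. A further 3 of the 21 and 1 of the 26 passed only through ESCs. Of those that reached 1 TPM in an ESC library, 10 of 17 and 13 of 22 were higher. Laminins, the main basement membrane proteins, went the other way, 6 of 8 lower and 1 higher, with 3 of the 8 passing only through ESCs.

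Genes of excitability were partly in place. Of 15 ionotropic glutamate receptor subunits that passed the filter 12 were higher and none lower, and of 10 GABA-A receptor subunits 8 were higher, but 9 and 6 of these genes passed only through the NPC libraries. Gria2, the AMPA receptor subunit that limits calcium entry, had 19.1, 17.8 and 19 TPM in NPCs and at most 0.00923 TPM in an ESC library. Calcium channel subunits gave 14 higher and 3 lower of 19, and potassium channel subunits 23 and 7 of 43, with 6 and 17 genes passing only through the NPC libraries. A further 1 calcium and 6 potassium channel genes passed only through ESCs. Of the 13 calcium channel genes that reached 1 TPM in an ESC library 8 were higher. Of 26 such potassium channel genes 8 were higher, near the 25.9% of all genes tested. All 5 collapsin response mediators, cytoplasmic partners of axon guidance receptors, were higher.

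RNA splicing regulators were mostly higher in NPCs. Of 25 genes 18 were higher than in the tagged ESCs and 3 lower, the last being Esrp1, Esrp2 and Mbnl2. Mbnl2 had means of 45.2 TPM in the tagged ESCs, 12.2 TPM in the parental ESCs and 20.8 TPM in NPCs. For Mbnl2, NPCs thus lay below one ESC group and above the other. The filter was passed only through the NPC libraries by 5 of the 25 and only through ESCs by 2. Among the 20 that reached 1 TPM in an ESC library 13 were higher. Ptbp2, the neural form of the polypyrimidine tract protein, had 186, 197 and 204 TPM in NPCs and 49.5, 42.7 and 42.9 TPM in the tagged ESCs. Ptbp1, which in other cells holds Ptbp2 back, had 472, 475 and 476 TPM in NPCs and 647, 662 and 657 TPM in the tagged line, so NPCs were below ESCs in every library but within the 2-fold limit (log2 -0.47 ± 0.020, adjusted p = 8.30e-09). The neuronal regulators Nova2, Celf3 and Srrm4 rose from 2.68 to 53.6 TPM, from 0.407 to 95.3 TPM and from 0.630 to 22.7 TPM.

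In the BAF chromatin remodelling complex several alternative subunits rose. Of 25 genes 12 were higher and none lower, and with the median shift removed 11 were higher and 1 lower. Only through the NPC libraries passed 2 of the 25, and 10 of the 23 others were higher. Smarca2 (BRM), the alternative ATPase, had 47.7, 55.9 and 54.2 TPM in NPCs against 1.50, 1.52 and 1.91 TPM in the tagged ESCs, while Smarca4 (BRG1) had 289, 298 and 304 TPM against 181, 180 and 175 TPM, under the limit. Actl6b, the actin-like subunit of neurons, reached 20.3, 18.6 and 21.2 TPM from at most 0.147 TPM, and its progenitor form Actl6a had 172, 170 and 180 TPM in NPCs and 173, 174 and 167 TPM in the tagged ESCs, a log2 difference of 0.02 ± 0.029. Smarcd3 and Smarcc2 rose from 4.46 to 144 TPM and from 27.5 to 238 TPM.

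DNA methylation and Polycomb genes were called about as often as other genes. Of 14 genes for DNA methylation and TET enzymes 4 were higher and 4 lower, or 2 and 4 with the median shift removed. Dnmt3b, a de novo methyltransferase, had 448, 451 and 438 TPM in the tagged ESCs and 14.3, 15.6 and 13.9 TPM in NPCs, and its cofactor gene Dnmt3l was listed at 0 there. The maintenance enzyme Dnmt1 had means of 154 and 181 TPM. Among the TET enzymes, which oxidise 5-methylcytosine, Tet1 fell from 115 ± 4.43 to 17.1 ± 1.37 TPM and Tet3 rose from 7.96 ± 0.236 to 37.7 ± 1.17 TPM. Polycomb subunits gave 7 higher and 6 lower of 26, against 25.9% and 20.7% of all genes. The chromobox subunit Cbx7 had 236, 233 and 261 TPM in the tagged ESCs and 10.5, 8.58 and 11.0 TPM in NPCs, whereas Cbx2 had 18.1, 17.6 and 19 TPM and 73.2, 75.1 and 76.6 TPM. Bmi1 rose from 7.22 to 67.1 TPM, and the accessory subunits Jarid2 and Epop of the H3K27 methyltransferase complex fell from 212 to 59.1 TPM and from 166 to 22.8 TPM while Ezh2 had 169 and 295 TPM.

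**Figure D4:**
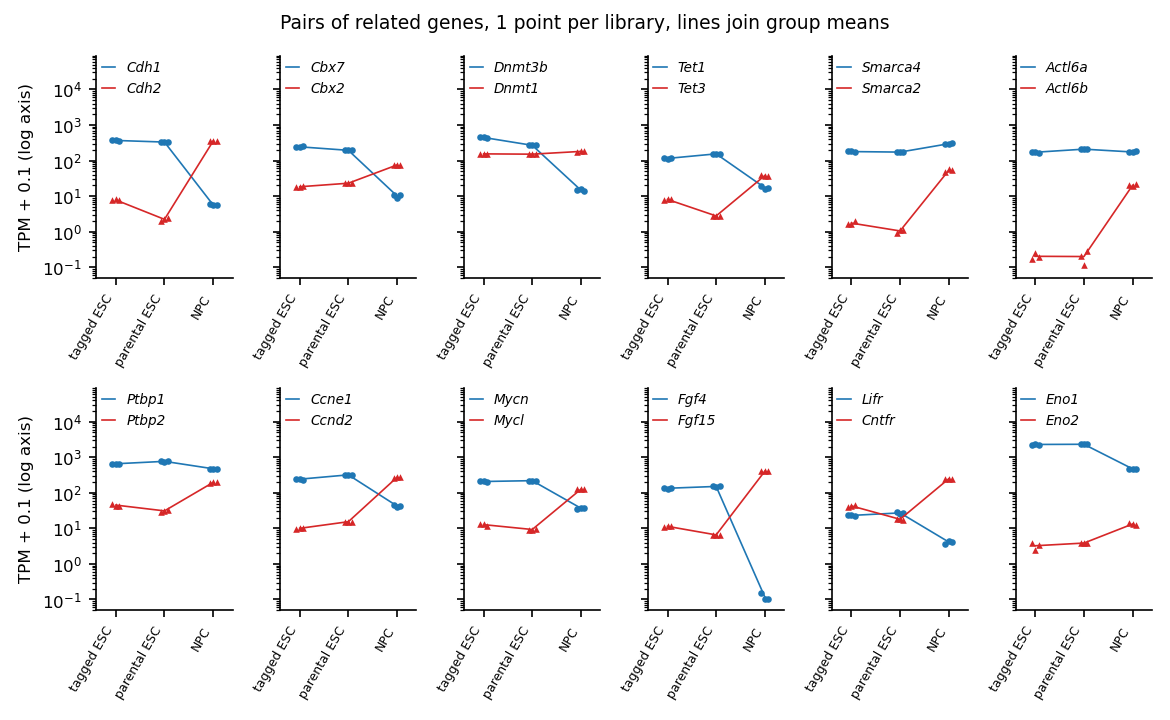
TPM plus 0.1 on a log axis for 12 pairs of related genes in the tagged ESCs, parental ESCs and NPCs, with 1 point per library and lines joining group means. The pairs were chosen after their values had been seen. Cdh1 and Cdh2 cross from 368 and 7.68 TPM to 5.57 and 351 TPM, while Actl6b is added to an even level of Actl6a.

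TRIM28 is the protein that the study degrades, and its silencing partners were read as a group. Of 24 genes none was higher in NPCs and 6 were lower, Trim28, Atf7ip2, Morc3, Hells, Zfp57 and Zfp809, against 20.7% lower among all genes tested. Trim28 had 284, 291 and 285 TPM in NPCs, 622, 622 and 626 TPM in the tagged ESCs and 1418, 1389 and 1387 TPM in the parental ESCs, with log2 differences of -1.12 from the tagged and -2.28 from the parental ESCs and of 1.16 between the ESC groups. The methyltransferase gene Setdb1 had 76.4 and 72.9 TPM, and the HP1 genes Cbx1, Cbx3 and Cbx5 all stayed within 2-fold. Against the parental ESCs 4 of the list were lower and 2 higher.

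Single cell cycle genes differed in both directions. Of 31 genes 12 (38.7%) were higher in NPCs and 6 (19.4%) lower, against 25.9% and 20.7% of all genes tested. With the median shift removed 9 were higher and 7 lower. Cyclin E, which is high in ESCs, fell, with Ccne1 at 244, 246 and 235 TPM in the tagged ESCs and 44.3, 39.4 and 43.8 TPM in NPCs. Ccnd2, a D-type cyclin, had 9.80, 9.94 and 10.0 TPM in the tagged ESCs and 269, 271 and 278 TPM in NPCs. The CDK inhibitors Cdkn1b and Cdkn2c rose from 23.1 to 99.5 TPM and from 1.02 to 19.6 TPM. Mycn fell from 208 to 36.8 TPM and Mycl rose from 12.6 to 126 TPM, while Myc had 125 TPM in the tagged ESCs but 30.3 TPM in the parental ESCs and 19.9 TPM in NPCs. The proliferation genes Mki67 and Pcna had 166 and 411 TPM in NPCs against 93.0 and 358 TPM, both within the limit.

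Glycolysis genes were mostly lower and cholesterol synthesis genes mostly higher. Glycolysis and glucose uptake gave 12 lower and 2 higher of 22 genes. Ldha, which makes lactate, had 1399, 1594 and 1374 TPM in the tagged ESCs and 204, 227 and 194 TPM in NPCs, and the lactate exporter Slc16a3 went from 96.8 to 1.71 TPM. Of the enolases Eno1 fell from 2288 to 471 TPM and Eno2, the neuronal form, rose from 3.15 to 13.1 TPM. Cholesterol synthesis gave 15 higher and none lower of 22 genes, 12 with the median shift removed and 11 against the parental ESCs. Hmgcs1, an early enzyme of the pathway, had 175, 171 and 168 TPM in the tagged ESCs, 224, 228 and 230 TPM in the parental ESCs and 936, 1014 and 1004 TPM in NPCs. NPCs grew in a medium of other composition than the serum of the ESCs, and the part of the medium in these differences was not tested. None of the 13 mitochondrially encoded genes was called, and mitochondrial transcripts took 7.32% to 7.54% of the TPM of NPC libraries and 6.00% to 7.90% of those of the tagged ESCs.

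Ribosomal protein genes changed little, and their count depended on scaling. Of 77 ribosomal protein genes 3 were lower and 74 not called, with a median log2 difference of -0.49, and with the median shift removed 27 were lower. Of 14 reference genes 2, Hprt and Gusb, were lower, with Hprt at 49.4 TPM in NPCs and 197 TPM in the tagged ESCs. Actb and Gapdh had 2466 and 2560 TPM in NPCs against 3872 and 3882 TPM.

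Germline and cleavage-stage genes, which subsets of ESC cultures express, were mostly at or near 0 in NPCs. All 18 tested germline genes (22 listed) were lower, among them Tex19.1, with 91.1, 101 and 91.3 TPM in the tagged ESCs and 0, 0.0484 and 0.0751 TPM in NPCs, and Ddx4, the germ cell helicase, from 28.6 to 0.176 TPM. Of 16 genes of the totipotent-like state 15 were lower than in the tagged ESCs. Compared with the parental ESCs, where they were low as well, 7 were lower and 1, the arginase gene Arg2 at 2.60 TPM in NPCs, was higher. Zscan4f had 65.5, 71.0 and 73.5 TPM in the tagged ESCs, 5.78, 5.73 and 5.73 TPM in the parental ESCs and was listed at 0 in NPCs. Zscan4 and Usp17l genes are near-identical copies, so the split among them is uncertain. All 22 tested Platr genes, non-coding RNAs named for their link to pluripotency, were lower, and 20 of them against the parental ESCs as well. However, 19 of the 22 were under 1 TPM in every NPC library and passed the filter only through ESCs. The same holds for 15 of the 18 germline genes and 15 of the 16 genes of the totipotent-like state.

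Imprinted genes, expressed from 1 parental copy, gave 14 higher (46.7%) and 8 lower (26.7%) of 30 tested, against 25.9% and 20.7% of all genes. Of the 30 genes 3, Phlda2 among them, were under 1 TPM in every NPC library and passed the filter only through ESCs. Peg12 had 108, 104 and 101 TPM in NPCs and 3.96, 4.31 and 3.96 TPM in the tagged ESCs. Plagl1 and Peg3 rose from 7.77 to 96.3 TPM and from 41.1 to 193 TPM, and Phlda2, a placental growth gene, went from 109, 122 and 111 TPM to 0.337, 0.470 and 0.0739 TPM. Several depended on the ESC group, such as Nnat, with 1.06 TPM in the tagged ESCs, 10.6 TPM in the parental ESCs and 11.4 TPM in NPCs. Interferon and antigen presentation genes gave 12 lower and none higher of 22 tested against the tagged ESCs. Against the parental ESCs 8 were lower and 4 higher. Under 1 TPM in every NPC library were 6 of the 22, which passed the filter only through ESCs. Ifitm3 was lower than in both, with 1.96, 3.10 and 2.52 TPM in NPCs and 363, 363 and 364 TPM in the tagged line. Gbp2 was at 48.4 TPM only in the tagged ESCs, with 0.664 TPM in the parental ESCs and 0.0838 TPM in NPCs.

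MicroRNA hosts also differed, and since poly(A) RNA reports the host transcript, nothing is said of the mature microRNAs. Of the 8 tested hosts and precursor entries 4 were higher and 4 lower. Mir124-2hg, host of the neuronal miR-124, had 68.5, 67.9 and 75.8 TPM in NPCs and at most 0.0763 TPM in an ESC library. Mir9-3hg, host of miR-9, had 13.5, 11.7 and 9.02 TPM against 1.58, 1.34 and 1.57 TPM, and Mir99ahg, host of miR-99a, let-7c and miR-125b, 5.79, 5.75 and 7.15 TPM against at most 0.0246 TPM. On the ESC side Mir17hg, host of miR-17 and miR-20a, fell from 39.5, 35.0 and 48.1 TPM to 9.10, 8.69 and 9.17 TPM, and Mir290a and Mir302b, short precursor entries with few reads, were listed at 0 in NPCs from means of 2.63 and 4.21 TPM. Mir302b was at 0.0362 TPM in the parental ESCs.

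The mature sequences show which microRNAs share a seed, bases 2 to 8, which is in capitals and pairs with target mRNAs. They come from RefSeq (GRCm38.p6). miR-294 lies beside the Mir290a entry and miR-302b within the Mir302b entry, and both carry the seed AAGUGCU, while miR-17 and miR-20a carry AAAGUGC, the same letters shifted by 1 base. The seeds of miR-9, miR-99a, let-7c and miR-125b, whose hosts rose, are all different from these.
miR-9-5p: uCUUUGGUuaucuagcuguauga
miR-99a-5p: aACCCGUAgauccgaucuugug
let-7c-5p: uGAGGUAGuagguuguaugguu
miR-125b-5p: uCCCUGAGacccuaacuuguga
miR-294-3p: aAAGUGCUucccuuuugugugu
miR-302b-3p: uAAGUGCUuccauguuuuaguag
miR-17-5p: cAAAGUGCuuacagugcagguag
miR-20a-5p: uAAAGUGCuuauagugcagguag

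Chromatin at these genes was read in the tagged ESCs in DMSO, where peaks of H3K27Ac (a mark of active promoters and enhancers), RNAPII, the Mediator subunit MED23 and H3K9me3 (the heterochromatin mark laid down through TRIM28) are deposited per library. A gene was counted if a peak lay within 1000 bases of its start, and no difference in these shares was tested. Of the 1317 genes that were higher in NPCs and under 1 TPM in every tagged ESC library, 19.4% to 21.7% had an H3K27Ac peak, 13.4% to 13.8% an RNAPII peak and 63.3% to 64.3% a MED23 peak. Genes not called, most of them expressed in ESCs, had such peaks in 74.0% to 75.8%, 66.1% to 66.4% and 77.9% to 78.1%. A further class held 219 genes not called and also under 1 TPM in every tagged ESC library. It had 33.3% to 36.5% for H3K27Ac, 23.7% to 25.1% for RNAPII and 50.2% to 50.7% for MED23. The 219 genes passed the filter through parental ESC or NPC libraries without a call, so their ESC levels are not matched to those of the 1317. The 1317 higher genes had lower shares than the 219 for the first pair of marks and a higher share for MED23. Whether the difference in ESC level accounts for this was not tested. With only the 10000 highest peaks of each library, the 1317 genes had 6.68% to 7.14% for H3K27Ac and 17.0% to 18.9% for MED23. The 219 genes had 16.4% to 18.7% and 15.5% to 16.4%, and all genes not called 45.3% to 47.0% and 27.5% to 27.9%. Among the 30 neural progenitor factors 4 had H3K27Ac and 7 RNAPII in every library, and 28 had MED23, against 60.4%, 53.0% and 73.8% of all tested genes. Zic1, Pax6, Otx2 and Hes5 had MED23 only, Sox1 MED23 and RNAPII, and Fabp7 none of the 4.

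Genes lower in NPCs were the class with most H3K9me3 in ESCs. An H3K9me3 peak lay at the start of 7.29% to 9.26% of them, of 1.88% to 2.39% of the higher genes and of 2.63% to 3.62% of those not called. These ranges are over single libraries, and a stricter count asked for an H3K9me3 peak in every library. It gave 14.0% of the 178 genes on in ESCs and off in NPCs, against 2.32% of all tested genes. Pou5f1 and Zfp42 had H3K27Ac, RNAPII and MED23 in every library and no H3K9me3. Of the 18 naive genes 12 (66.7%) had H3K27Ac and 14 (77.8%) MED23 in every library, near the shares of all tested genes.

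**Figure D5:**
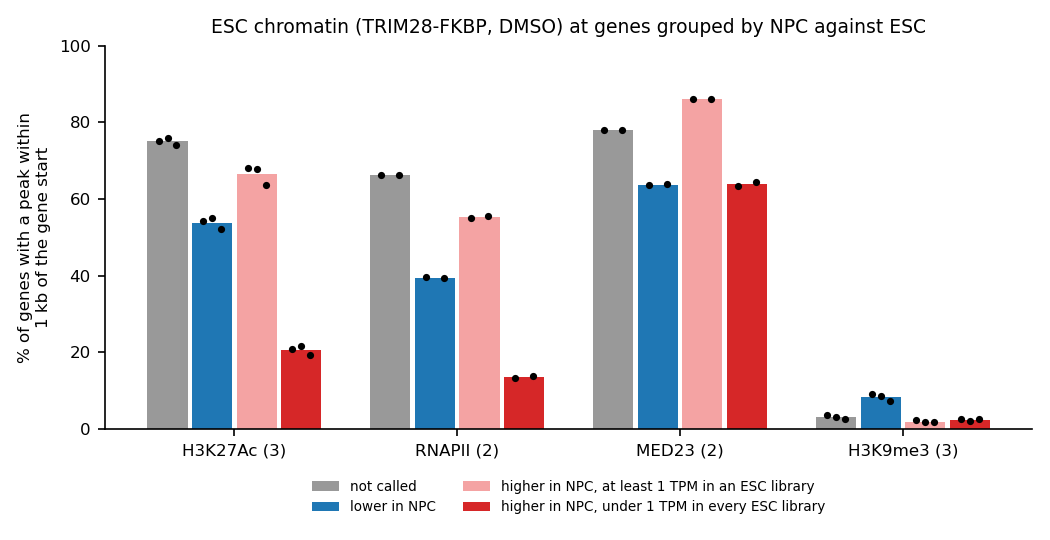
Share of tested genes, in percent, with a ChIP-seq peak of the tagged ESCs in DMSO within 1 kb of the start, by class of the NPC against ESC comparison. Bars are means over the libraries (number in brackets) and points are single libraries, with H3K27Ac at 19.4% to 21.7% and MED23 at 63.3% to 64.3% of the genes that are higher in NPCs and under 1 TPM in ESCs.

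The classes also differed in structure, as a description. Protein-coding genes higher in NPCs had a median span of 32.9 kb from start to end, against 18.1 kb for the lower ones and 23.0 kb for those not called, and 24.8%, 8.66% and 10.7% spanned more than 100 kb. In a window from 250 bases before to 50 after the start, the ratio of observed to expected CG had a median of 0.698 in the higher genes, 0.526 in the lower ones and 0.775 in those not called. It was 0.567 for 146 protein-coding genes switched on in NPCs and 0.335 for the 139 with a window that were switched off. The octamer lay in 4.32% of the windows switched off, in 2.06% of those switched on and in 1.44% of all 13879 windows, which is 6, 3 and 200 windows. A match says only that the letters are present. By chromosome, the share of protein-coding genes higher in NPCs was lowest on chromosome 7, at 22.3%, where 25.1% were lower, and highest on the X chromosome, at 35.5%. Processed pseudogenes, which share reads with their parent genes, were lower in 27.7% and higher in 6.10% of 1608 tested.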

How the data were processed

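Poly(A) RNA-seq of 9 libraries was used: NPC, tagged ESC in DMSO and parental ESC, 3 each. Per the methods and processing notes the authors trimmed reads with cutadapt 2.4, aligned them to mm10 with STAR 2.7.5a and deposited StringTie 2.0.6 gene tables with TPM, FPKM (both scaled to length and depth) and a coverage signal. TPM removes depth, so relative depth came from coverage over FPKM. Gene IDs listed more than once were summed. The deposited ChIP-seq peaks of the tagged ESCs were called by the authors per library and carry a fold enrichment and -log10 p and q values. Positions were used, and the fold enrichment ranked the 10000 highest peaks.

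The fit took genes that reached 1 TPM in 3 or more of the 9 tables and was made in limma 3.58.1 (R 4.3.3, lmFit and eBayes with trend) on log2(TPM + 0.5), 1 fit for the 3 groups, with Benjamini-Hochberg adjustment and calls at an adjusted p below 0.05 and over 2-fold. A fold change on this scale understates that of low genes, and a gene that passes only through the group where it is high had to differ. The script was tested on simulated data. Named genes are members of the lists, the 15 largest rises and 15 largest falls with at least 20 TPM, the 10 highest called in NPCs, and Trim28; some list members are not reported here. Lists and rule were chosen with earlier results of these data known, and the families and pairs after their values were seen. Sequences come from RefSeq. Alternatives were the pseudocount, filters, centring on library medians, fold limit, replicate block and leaving out libraries.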

Additional observations from a re-analysis of the deposited data

Results flagged for a closer look

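Mest, an imprinted gene, had opposite calls against the ESC groups. It had 3.15, 2.72 and 2.79 TPM in NPCs, above every library of the tagged ESCs and below every library of the parental ESCs, and the parental ESCs lay 6.11 above the tagged ones on the log2 scale (adjusted p = 4.32e-10, limma). Tnc, the matrix protein tenascin C, showed the same pattern with 6.57, 7.41 and 6.86 TPM in NPCs, 2.71, 2.19 and 2.24 TPM in the tagged and 26.2, 25.1 and 25.1 TPM in the parental ESCs, and the ESC groups differed by 3.18 on the log2 scale (adjusted p = 2.85e-09). Fibroblast markers summed to 99.1 to 102 TPM in the parental ESCs, which grew on feeders, and to 19.6 to 20.4 TPM in the tagged ESCs. Their part in these differences was not tested.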

How the results depend on the processing

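Against the tagged ESCs, a filter on a mean of at least 5 TPM left 2852 genes higher and 1907 lower in NPCs, and a limit of more than 4-fold 2028 and 1747. Against the parental ESCs the same settings gave 3294 and 1952, and 2612 and 1408. Centring libraries on their median moved the count lower than in the parental ESCs from 3331 to 5580. Leaving out 1 library at a time gave 3292 to 4554 higher and 3146 to 3615 lower against the tagged ESCs, and 3995 to 5290 and 3195 to 3341 against the parental ESCs. The lowest counts of higher genes came without an NPC library, where genes expressed only in NPCs can no longer reach the 3 libraries that the filter asks for. With a replicate block the counts were 4523 and 3609 against the tagged and 5290 and 3334 against the parental ESCs, but the numbers are shared in name only, since deviations of samples with the same number correlated by 0.108 at most, and the block changed no call of a gene named here. Of 209 named and tested genes, 199 kept their call under centring, 208 with a pseudocount of 1 and 209 without a filter on low values, and none turned direction where it could be tested. Only 159 of them still passed the filter when an NPC library was left out, and 185 had a mean of at least 5 TPM. With the mean of both ESC groups as reference 9 lost their call and 2 gained one. Hes1, Notch2, Fgfr1 and Sox2 lost their call under centring, and Ptch1, Gli1, Actb, Rbpj, Gja1 and Arg2 gained one, as lower. Hes1 also fell under the 2-fold limit without the first tagged ESC library and without the third NPC library. TPM holds no read numbers, so no counting error could be given, and values near 0 are the least certain.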

Other observations

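The parental ESCs differed from the tagged ESCs by chromosome. The median log2 difference, parental minus tagged, of protein-coding genes was 0.198 on chromosome 8 and between -0.280 and -0.0639 on the other autosomes and the X chromosome. Against the parental ESCs, NPC genes on chromosome 8 had a median of 0.00229, compared with 0.322 over all protein-coding genes, while against the tagged ESCs the medians were 0.244 and 0.241. No copy number was measured.

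Of the 17 genes with opposite calls against the ESC groups, Fosb, an immediate early gene, had means of 0.535 TPM in the tagged ESCs, 52.5 TPM in the parental ESCs and 2.63 TPM in NPCs. Cald1, an actin-binding protein of contractile cells, had 181, 27.1 and 75.2 TPM, and Vgf, a neuropeptide precursor, 21.0, 1.17 and 7.88 TPM. These genes were chosen for their pattern after their values were seen. Among replication-dependent histone genes, whose mRNAs mostly lack a poly(A) tail, 19 of 58 were higher than in the tagged ESCs but 4 higher and 7 lower than in the parental ESCs. Small nucleolar RNAs, also without a poly(A) tail, were lower in 50 and higher in 7 of 144.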
